A study of Mus musculus with 21 samples.

Results

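Prefoldin is a chaperone complex of the cytosol built from 6 different subunits, and the genes of all of them were measured here: Pfdn5 and Vbp1, which code for the alpha-type subunits, and Pfdn1, Pfdn2, Pfdn4 and Pfdn6, which code for the beta-type subunits. They make up 6 of the 20960 genes in the count table. The group was chosen as a named complex with earlier results of these data known, from its values over heart sections and treatment, so every value and change of the 6 genes below is a description, with no test of the genes themselves. The hearts came from 4 mice that received polystyrene nanoplastics during 8 weeks and from 3 control mice that received distilled water, all of them adult wild-type males. Every heart, perfused with cold buffered saline, was cut into 3 sections labelled atrial, right ventricular and left ventricular, which gave 21 libraries of polyadenylated RNA. The sources used here give no dose, route or mouse strain.

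Prefoldin binds actin and tubulin chains as they leave the ribosome and hands them to the ring-shaped chaperonin TRiC, also called CCT, which folds them. The alpha-type and beta-type subunits each extend a coiled-coil arm from a common barrel, and the tips of the arms hold the unfolded chain. In the heart, actin is the core of the thin filament of the sarcomere and tubulin forms the microtubule network of the cardiomyocyte. Single subunits also have names and partners of their own: the Vbp1 product was named for binding the von Hippel-Lindau protein, and the Pfdn5 product, also called MM-1, for binding Myc.

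Library totals ran from 413436 to 2439314 counts, apart from the right ventricular library of nanoplastics mouse 2, which held 4662. In that library 1 count was worth 82.5 CPM, the count per 1000000 after edgeR's TMM scaling between libraries, and the limit that a count of 0 allows, 3 counts, was 247.5 CPM. It held 1 count of Vbp1 and 0 of the other 5 genes, so it was left out of the levels and ratios of single libraries and kept in the whole-heart sums and the fitted changes. Without it the log2 change of Pfdn5 in the right ventricle was 0.51 in place of 0.46, and no other whole-heart or right ventricular change of a member moved by more. Most atrial sections did not carry their name in RNA, among them all 3 control ones. The summed level of 6 atrial muscle markers in atrial libraries ran from 47.75 to 68960 CPM in nanoplastics mice and from 212 to 576 CPM in control mice, and Bmp10, a defining atrial gene, was at 0 in all of them. The 4 ventricular muscle markers summed to between 14760 and 22550 CPM in the same nanoplastics libraries and between 15610 and 20030 CPM in the control ones. Atrial muscle sums of right ventricular libraries ran from 427 to 547 CPM in nanoplastics mice and from 120 to 271 CPM in control mice. The highest atrial muscle sum, 68960 CPM, belonged to nanoplastics mouse 1, while the highest left ventricular sum was 2501 CPM, in a nanoplastics library. Bmp10 was at 0 in that atrial library too, so its absence does not show that atrial muscle was missing. The section names are used below as the labels give them, so contrasts with the atrial section need not compare atrial with ventricular muscle.

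Levels between genes were compared per kilobase of the longest annotated transcript, on TMM-scaled CPM in whole hearts, each the sum of 1 mouse's sections. Pfdn5 stood first, with 498 ± 77.2 CPM per kb in nanoplastics hearts and 351 ± 33.6 CPM per kb in control hearts (SD, n = 4 and 3). Pfdn1 stood second, with 180 ± 8.60 and 142 ± 4.60 CPM per kb. Both lay clear of each other and of every other subunit in both groups. Pfdn6 followed with 50.5 ± 7.47 CPM per kb in nanoplastics hearts and 71.7 ± 20.6 in control hearts, and Vbp1 with 40.7 ± 8.03 and 41.4 ± 9.80, and the ranges of this pair overlapped in both groups. Pfdn4 came next with 31.8 ± 4.32 and 22.4 ± 2.74 CPM per kb, overlapping Vbp1 in nanoplastics hearts but not in control hearts. Pfdn2 was the lowest, with 9.64 ± 3.06 and 16.1 ± 1.98 CPM per kb. The complex holds its subunits in equal number. Per kilobase, however, the transcript of Pfdn5 was the most abundant in every mouse and that of Pfdn2 the least. The order was the same with the median instead of the longest transcript length, but not without division by length. In plain CPM, control hearts had more Pfdn2 (28.0 ± 3.44) than Pfdn4 (23.3 ± 2.85), and Vbp1 averaged above Pfdn6 in both groups. The libraries were barcoded at the 5' end, and whether their counts rise with transcript length was not tested. The order per kilobase therefore holds only if division by length suits these counts.

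The start regions of the genes were read to show what sequence the higher and the lower members carry. RefSeq windows of 300 bases (250 before the start and 50 from it, build GRCm38.p6) were at hand for 5 of the 6 members, all but Pfdn1. They were searched on both strands for 6 motifs, and capitals mark every match: the ETS core CCGGAA, held by 14.9% of 32851 windows of the same length, the YY1 motif AAGATGG (6.34%), the CCAAT box CCAAT (37.4%), the GC box GGGCGG (35.7%), the E-box CACGTG (7.15%) and a heat shock element GAANNTTC (7.86%). The windows below belong to Pfdn2 and Pfdn6, the members that were lower in nanoplastics hearts, and to Pfdn5 and Pfdn4, which were higher. Pfdn2 and Pfdn6 each have another start in the table, whose window is not shown. That of Pfdn2 held none of the 6 motifs, and that of Pfdn6 largely overlaps the window shown and holds the same 2 matches.
Pfdn2, chr1:171345425-171345724, plus strand: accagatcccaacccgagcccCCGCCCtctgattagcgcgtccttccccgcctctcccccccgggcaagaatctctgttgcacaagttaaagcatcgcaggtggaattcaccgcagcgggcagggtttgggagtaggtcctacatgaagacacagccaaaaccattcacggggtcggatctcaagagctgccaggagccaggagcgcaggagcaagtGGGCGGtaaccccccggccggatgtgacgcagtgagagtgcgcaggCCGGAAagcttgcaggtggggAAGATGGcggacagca
Pfdn6, chr17:33940294-33940593, minus strand: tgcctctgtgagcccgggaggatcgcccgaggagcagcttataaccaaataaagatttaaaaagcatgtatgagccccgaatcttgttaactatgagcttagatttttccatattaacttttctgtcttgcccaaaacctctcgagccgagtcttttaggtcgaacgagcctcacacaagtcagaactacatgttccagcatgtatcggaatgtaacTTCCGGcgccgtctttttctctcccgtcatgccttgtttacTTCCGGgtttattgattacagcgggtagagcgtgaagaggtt
Pfdn5, chr15:102325866-102326165, plus strand: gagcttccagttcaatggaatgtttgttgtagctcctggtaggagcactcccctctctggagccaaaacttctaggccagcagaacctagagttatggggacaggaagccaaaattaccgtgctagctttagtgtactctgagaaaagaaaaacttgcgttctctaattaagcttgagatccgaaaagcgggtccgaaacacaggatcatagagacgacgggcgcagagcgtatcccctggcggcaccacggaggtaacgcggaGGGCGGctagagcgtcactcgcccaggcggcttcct
Pfdn4, chr2:170496178-170496477, plus strand: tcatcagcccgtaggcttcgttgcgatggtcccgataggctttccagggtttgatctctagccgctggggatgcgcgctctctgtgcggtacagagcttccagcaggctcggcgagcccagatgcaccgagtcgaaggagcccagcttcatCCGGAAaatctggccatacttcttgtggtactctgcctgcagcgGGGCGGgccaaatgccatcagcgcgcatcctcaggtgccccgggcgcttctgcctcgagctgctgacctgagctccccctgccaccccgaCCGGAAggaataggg

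The ETS core was present in the windows of Pfdn2, Pfdn6 and Pfdn4 and thus in members of both directions. Counting the start base as 1 and the base before it as -1, the first letter of the match lay at 14 in Pfdn2, at -33 and 9 in Pfdn6, both on the reverse strand, and at -99 and 36 in Pfdn4. Pfdn2 also held the YY1 motif at 35 and GC boxes at -229 and -33, Pfdn4 held a GC box at -55, and Pfdn5 held a GC box at 15 and no other match. The Vbp1 window, which is not shown, held 3 CCAAT boxes and the YY1 motif. None of the 5 members held the E-box or the heat shock element. A match is only a run of letters, and its absence says nothing about a factor.

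Treatment was compared in whole hearts with 1 value per mouse. The sum weights each section by its depth. Right ventricular totals ran from 4662 to 813585 counts in nanoplastics mice and from 1333133 to 2042568 counts in control mice. Atrial totals ran from 841786 to 2275813 and from 990954 to 1286523 counts. The mix of sections thus differed between the groups, and these sums do not separate it from treatment. In nanoplastics hearts the transcripts of Pfdn5, Pfdn1 and Pfdn4 were higher than in control hearts, those of Pfdn2 and Pfdn6 were lower, and that of Vbp1 lay at the same level. The summed level of the 6 genes averaged 883 ± 77.9 CPM in nanoplastics hearts and 705 ± 71.9 CPM in control hearts (SD, n = 4 and 3), most of it from Pfdn5. The test across all genes (edgeR's quasi-likelihood test, Benjamini-Hochberg adjusted p under 0.05) called 217 of 8485 genes, 2.56%, of which 152 were higher. Of the 6 members, all of which passed the filter on low counts, it called 1, Pfdn2. DESeq2 called Pfdn2 and Pfdn5, among 333 genes in all. The group was chosen on this contrast, so nothing is read from these counts. The share of all genes whose groups do not overlap was not computed. Where groups of a member are said below to be apart or to overlap, in whole hearts or sections, this is a description only. In bulk tissue, fewer cells of a type and less RNA per cell cannot be told apart.

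Pfdn5, the most abundant alpha-type subunit gene, was at 650.8, 484, 498 and 481 CPM in nanoplastics mice 1 to 4, against 413, 359 and 345 CPM in control mice 1 to 3. All nanoplastics hearts lay above all control hearts, and nanoplastics mouse 1 stood well above the other 3. The fitted log2 change was 0.50 (SE 0.14), and 0.39 without that mouse. Vbp1, the other alpha-type gene, was at 71.5, 75.7, 66.0 and 46.7 CPM in nanoplastics hearts, against 84.1, 57.5 and 56.5 CPM in control hearts. Its groups overlapped almost fully, and the fitted log2 change was -0.04 (SE 0.17).

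Among the beta-type genes, Pfdn1 was at 197, 193, 193 and 213 CPM in nanoplastics hearts, against 158, 153 and 163 CPM in control hearts. The groups were narrow and did not overlap, and the log2 change was 0.34 (SE 0.12). Pfdn4 was at 34.1, 34.4, 37.4 and 26.8 CPM in nanoplastics hearts, against 26.5, 20.9 and 22.7 CPM in control hearts. The lowest nanoplastics heart lay just above the highest control heart, and the log2 change was 0.49 (SE 0.17).

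The other beta-type pair went the opposite way. Pfdn2 was at 12.0, 24.3, 15.2 and 15.4 CPM in nanoplastics hearts, against 31.5, 27.7 and 24.7 CPM in control hearts. The groups did not overlap, but nanoplastics mouse 2 came close to the lowest control heart, and the log2 change was -0.77 (SE 0.20). The call was lost when any mouse other than nanoplastics mouse 2 was left out. Pfdn6 was at 32.6, 46.8, 40.6 and 43.0 CPM in nanoplastics hearts, against 74.6, 57.5 and 41.3 CPM in control hearts. Control mouse 3 lay inside the nanoplastics range, and the log2 change was -0.52 (SE 0.18), or -0.27 without control mouse 1.

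Sums of cell type markers moved with these values in whole hearts. The summed level of 8 cardiomyocyte markers ran from 63090 to 75340 CPM in nanoplastics hearts and from 51190 to 58010 CPM in control hearts, without overlap. Taken singly, 7 had a positive log2 change and 1, Myl3, a negative one (-0.21, SE 0.13). Of the 8, edgeR called Myl2 (log2 change 0.54, SE 0.11) and Tnni3 (0.53, SE 0.10) as higher. The 8 fibroblast markers summed to between 1127 and 1847 CPM in nanoplastics hearts and between 953 and 1059 CPM in control hearts. All 8 had a positive log2 change, and edgeR called Dcn (0.55, SE 0.15). The 7 endothelial markers summed to between 1192 and 1345 CPM and between 1075 and 1130 CPM, with 0 called by edgeR or DESeq2. Taken singly, 5 of these 7 had a negative log2 change and 2 a positive one, with a median of -0.06. The 1 at an unadjusted p under 0.05 in edgeR, Egfl7, was lower in nanoplastics hearts (-0.55, SE 0.24). The 6 atrial muscle markers ran from 224 to 20240 CPM in nanoplastics hearts and from 175 to 283 CPM in control hearts, and edgeR called Dkk3 (1.78, SE 0.46) and DESeq2 called Myl7, Myl4 and Sln as higher. No marker of these lists was at 0 in a whole group. With scaling by library totals, the ranges of all 4 sums overlapped between the groups. The part of these markers in the prefoldin values was not tested.

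**Figure D1:**
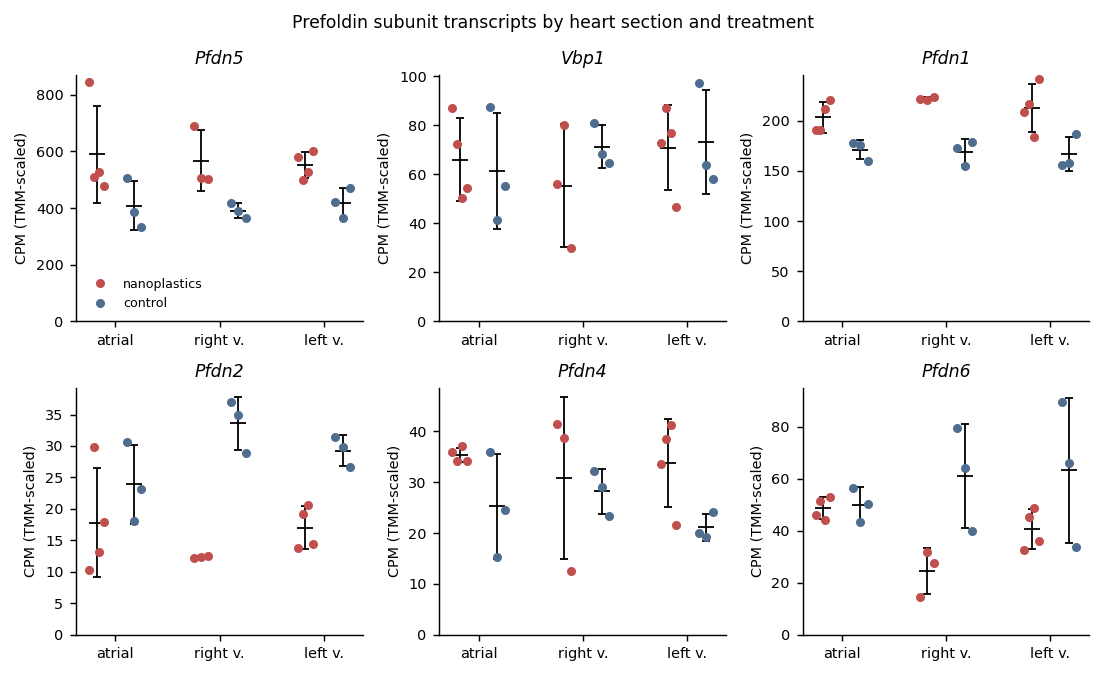
Level of each prefoldin subunit gene in TMM-scaled CPM (vertical axes, each from 0) in the atrial, right ventricular and left ventricular libraries of nanoplastics mice (red, left) and control mice (blue, right); points are libraries, and the bars show the mean and SD, without the library of 4662 counts. The 3 right ventricular nanoplastics libraries of Pfdn2 sit between 12.2 and 12.5 CPM, below all control libraries of that section, and those of Pfdn1 sit between 220.5 and 223 CPM, above them.

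By section, the separation of Pfdn2 and Pfdn6 was widest in the right ventricle. There Pfdn2 had 5, 9 and 5 counts in nanoplastics mice 1, 3 and 4, or 12.2, 12.4 and 12.5 CPM, against 77, 66 and 42 counts, or 36.95, 34.95 and 28.8 CPM, in control mice. Pfdn6 had 6, 23 and 11 counts in the same nanoplastics mice, or 14.65, 31.7 and 27.6 CPM, against 166, 121 and 58 counts, or 79.7, 64.1 and 39.8 CPM, in control mice. Neither gene's groups overlapped, and both rest on few counts in the nanoplastics libraries. Pfdn2 met the filter on low counts in this section through the control libraries alone, and Pfdn6 would not have met it without them. The log2 changes were -1.45 (SE 0.36) for Pfdn2 and -1.27 (SE 0.29) for Pfdn6. Both were among the 39 genes called of 4489 tested in this section, 0.869%, while DESeq2 called 0 genes here and 606 had an unadjusted p under 0.05 in edgeR. The call of Pfdn2 was lost without control mouse 1, control mouse 2 or nanoplastics mouse 1, and that of Pfdn6 without control mouse 1 or nanoplastics mouse 1.

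In the same section the more abundant members were higher in nanoplastics mice. Pfdn5 was at 691, 506 and 504.1 CPM in nanoplastics mice 1, 3 and 4, against 419, 389 and 365 CPM in control mice. Pfdn1 was at 222, 220.5 and 223 CPM, against 173, 155 and 179 CPM. The groups of both genes were apart, with log2 changes of 0.46 (SE 0.27) and 0.36 (SE 0.24). Pfdn4 and Vbp1 overlapped, with log2 changes of 0.16 (SE 0.29) and -0.28 (SE 0.25), and both were lowest in nanoplastics mouse 4, which had 5 counts of Pfdn4 and 12 of Vbp1. Muscle markers moved with the values of this section. The 6 atrial muscle markers summed to between 427 and 547 CPM in nanoplastics right ventricles, with Bmp10 at 0, and between 120 and 271 CPM in control ones, and the sums were also apart with scaling by library totals. Of these, Nppa, the gene of atrial natriuretic peptide, was the only one tested. It was called by edgeR, at a log2 change of 1.08 (SE 0.25, adjusted p = 0.00857), and not by DESeq2 (adjusted p = 0.9995). The 8 cardiomyocyte markers summed to between 65620 and 82360 CPM in the nanoplastics libraries and between 53720 and 60120 CPM in the control libraries, and with library totals these ranges overlapped. Taken singly, 6 of the 8 had a positive log2 change and 2 a negative one, Myl3 (-0.34, SE 0.50) and Tnnt2 (-0.10, SE 0.54). Neither edgeR nor DESeq2 called any of the 8. The 7 endothelial markers overlapped, at 978 to 1369 CPM in nanoplastics and 1139 to 1331 CPM in control libraries. The part of these markers in the prefoldin values was not tested.

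In the left ventricle the directions were those of the whole heart. Pfdn2 was at 13.8, 19.3, 20.6 and 14.4 CPM in nanoplastics mice 1 to 4, against 31.4, 29.8 and 26.6 CPM in control mice, without overlap and with a log2 change of -0.85 (SE 0.25). Pfdn6 was at 32.7, 45.3, 48.7 and 36.0 CPM, against 89.6, 66.2 and 33.9 CPM, and control mouse 3 again lay among the nanoplastics values. That control library was the shallowest of its section, with 413436 counts, 14 of them of Pfdn6 and 11 of Pfdn2. Pfdn5 averaged 552 ± 46.3 CPM in nanoplastics mice and 418 ± 52.6 CPM in control mice (SD, n = 4 and 3), without overlap. Pfdn1, Pfdn4 and Vbp1 overlapped, with log2 changes of 0.34 (SE 0.16), 0.72 (SE 0.25) and -0.11 (SE 0.22). The test called 3 of 5440 genes here, 0.0551%, and 0 of the 6 members, 5 of which had an unadjusted p under 0.05, as did 768 genes in all (14.1%). DESeq2 called 80 genes and 0 members, giving an adjusted p to Pfdn1 and Pfdn5 alone.

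In the atrial section only Pfdn1 was apart between the groups, at 191, 190, 211 and 221 CPM in nanoplastics mice, against 178, 176 and 160 CPM in control mice. Pfdn5 was at 844.7, 509, 526.4 and 476 CPM in nanoplastics mice, against 504.5, 387 and 334.5 CPM in control mice. Its highest value belonged to nanoplastics mouse 1, the library rich in atrial muscle markers, and the log2 change of 0.50 (SE 0.22) became 0.29 without that mouse. Pfdn2 ran from 10.3 to 29.9 CPM in nanoplastics mice and from 18.01 to 30.6 CPM in control mice. Pfdn6 was level, at 48.7 ± 4.24 CPM in nanoplastics mice and 50.1 ± 6.72 CPM in control mice (SD, n = 4 and 3). Pfdn4 and Vbp1 overlapped as well, with log2 changes of 0.46 (SE 0.27) and 0.08 (SE 0.27). edgeR called 0 of 5502 genes in this section, 0%, against 94 called by DESeq2 and 674 with an unadjusted p under 0.05.

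**Figure D2:**
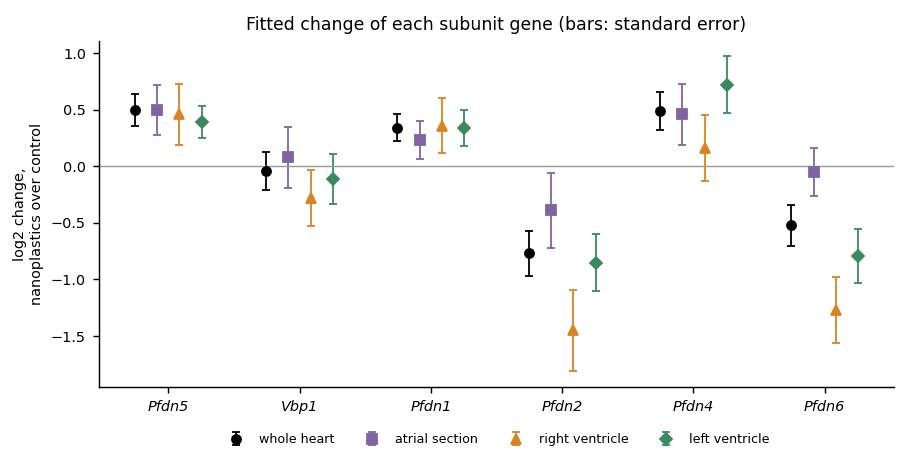
Fitted log2 change, nanoplastics over control, with its standard error (vertical axis), of each subunit gene in whole hearts and in each section (symbols). Pfdn5 and Pfdn1 lie above 0 in all 4 comparisons and Pfdn2 below 0 in all 4, while Pfdn6 runs from -0.05 in the atrial section to -1.27 in the right ventricle.

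Whether the treatment difference itself differed between sections was tested across 6269 genes with an interaction term, and edgeR called 0 genes, 0%, for the atrial section against the left ventricle and 0 genes, 0%, for the right against the left ventricle. Unadjusted p-values under 0.05 numbered 345 and 188, and no other tool was run. The interaction estimate of Pfdn6 was 0.61 (SE 0.28) for the atrial section against the left ventricle and -0.57 (SE 0.34) for the right against the left ventricle. The corresponding estimates of Pfdn2 were 0.35 (SE 0.36) and -0.53 (SE 0.44), and those of Pfdn4 were -0.20 (SE 0.34) and -0.62 (SE 0.37). Pfdn1, Pfdn5 and Vbp1 lay between -0.18 and 0.21. No member was called in either test.

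Between sections as labelled, with the mouse as a block, the subunit genes were nearly level. Since most atrial sections were poor in atrial muscle markers, this does not show that atrial and ventricular muscle are level. Pfdn5 averaged 512 ± 163 CPM in atrial, 479 ± 119 CPM in right ventricular and 495 ± 84.5 CPM in left ventricular libraries (SD, n = 7, 6 and 7), and Pfdn1 190 ± 20.97, 196 ± 30.1 and 193 ± 31.3 CPM. Pfdn6 was at 49.3 ± 4.96, 42.9 ± 24.4 and 50.4 ± 20.8 CPM, with a smaller spread in the atrial libraries. The log2 differences of the 6 genes ran from -0.30, for Pfdn2 in the atrial section against the right ventricle, to 0.29, for Pfdn4 in the right against the left ventricle. None of the 6 was called by edgeR or by DESeq2, and none had an unadjusted p under 0.05, in any of the 3 contrasts. Over all genes edgeR called 0.155% for the atrial section against the left ventricle, 0.606% for the atrial section against the right ventricle and 0.02% for the right against the left ventricle.

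Because 2 members were lower while the rest were higher or level, the make-up of the prefoldin transcripts differed between the groups. These shares and ratios are taken within a library and need no scaling between libraries, but they rest on the same counts as the changes above. In whole hearts Pfdn5 made up 59.6% ± 3.86 of the prefoldin counts in nanoplastics mice and 52.8% ± 0.368 in control mice (SD, n = 4 and 3). Pfdn2 made up 1.92% ± 0.678 and 3.96% ± 0.167, and Pfdn6 4.68% ± 0.983 and 8.11% ± 1.62. The share of Pfdn1 was 22.7% ± 2.47 in nanoplastics mice and 22.5% ± 2.43 in control mice.

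Between an alpha-type and a beta-type subunit, there were 34.6 ± 14.4 counts of Pfdn5 per count of Pfdn2 in nanoplastics hearts and 13.4 ± 0.569 in control hearts. The control hearts were close together, while the nanoplastics hearts ran from 19.9 to 54.3. In the right ventricle the ratio was 45.9 ± 9.31 in nanoplastics mice and 11.7 ± 0.840 in control mice (SD, n = 3 each). It was 33.8 ± 9.24 and 14.4 ± 2.85 in the left ventricle (SD, n = 4 and 3), and the groups overlapped in neither. In the atrial section it ran from 17.03 to 82.4 in nanoplastics mice and from 14.5 to 21.5 in control mice and overlapped. The ratio of Pfdn1 to Pfdn2, both beta-type, behaved alike, at 17.9 ± 0.238 in nanoplastics and 5.11 ± 0.966 in control right ventricles. The ratios of Pfdn5 to Pfdn1, both higher, and of Pfdn6 to Pfdn2, both lower, overlapped in whole hearts and in every section. Pfdn5 per Pfdn1 was 2.66 ± 0.448 in nanoplastics hearts and 2.36 ± 0.246 in control hearts, and Pfdn6 per Pfdn2 was 2.53 ± 0.405 and 2.04 ± 0.348.

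**Figure D3:**
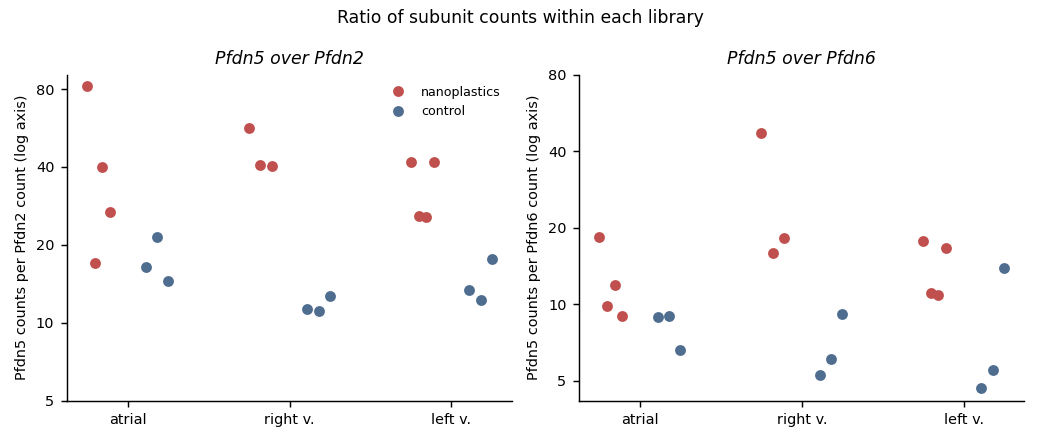
Counts of Pfdn5 per count of Pfdn2 (left panel) and per count of Pfdn6 (right panel) within each library, on log axes, by section, with nanoplastics mice in red and control mice in blue; the library of 4662 counts is left out. For Pfdn2 the right ventricular ratios lie between 40.2 and 56.6 in nanoplastics mice and between 11.1 and 12.7 in control mice.

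Across the 20 libraries of at least 100000 counts, log2 levels of Pfdn2 and Pfdn6 correlated positively (Pearson's r 0.70, Spearman's rho 0.76), as did those of Pfdn1 and Pfdn5 (r 0.65, rho 0.69), while Pfdn1 and Pfdn2 correlated negatively (r -0.76, rho -0.78). These libraries share mice and treatment. With each section and treatment group centred on its own mean, the same values of r were 0.42, 0.09 and -0.26. The closest pair within groups was Pfdn4 and Vbp1, with r 0.77 after centring and 0.61 before. The genes most like the mean of the 6 members, of 2029 candidates with a mean of at least 50 counts, were Selenos, an endoplasmic reticulum selenoprotein (r 0.898), Cd63, a tetraspanin of late endosomes (r 0.868), Sept7, a septin (r 0.863), Swi5 (r 0.851) and Snapc5 (r 0.838). After centring their r lay between 0.795 and 0.878. Taken by member, Pfdn5 lay closest to genes of small ribosomal subunit proteins, with Rps27l at r 0.951 (0.890 after centring) and Rps25 at r 0.941 (0.875), and near-identical copies of Rps27 may share reads. Pfdn1 lay closest to Ndufa12 (r 0.885, centred 0.656) and Cox6a2 (r 0.875, centred 0.549), both of the respiratory chain. The nearest gene to Pfdn2 was Pcmt1 (r 0.877, centred 0.679), to Pfdn6 Atp1b1 (r 0.836, centred 0.711), to Pfdn4 Nudt7 (r 0.847, centred 0.858) and to Vbp1 Mtx2 (r 0.897, centred 0.894).

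Transcript length moved with the treatment difference over all genes. Genes were put in 5 classes of transcript length. In the shortest class (57 to 1456 nt, 1683 genes) 128 of the whole-heart calls were higher and 9 lower in nanoplastics hearts, and the median log2 change was 0.21, beside -0.10 in the longest class. Pfdn1 (1109 nt), Pfdn4 (1041 nt), Pfdn5 (1062 nt) and Pfdn6 (807 nt) belong to the shortest class, and Vbp1 (1595 nt) and Pfdn2 (1735 nt) to the next, whose median was -0.02. The median transcript length per count ran from 1104 to 1260 nt in nanoplastics and from 1267 to 1450 nt in control libraries, without overlap, leaving out the library of 4662 counts, which was at 1473 nt. With the length trend removed, the whole-heart log2 changes were 0.36 for Pfdn5, 0.21 for Pfdn1 and 0.35 for Pfdn4, and -0.76 for Pfdn2, -0.74 for Pfdn6 and -0.05 for Vbp1. The higher members thus moved toward 0 and Pfdn6, the shortest, moved away from it. No member was called after this correction, in whole hearts or right ventricles, where Pfdn2 was at -1.38 and Pfdn6 at -1.48. What set the length difference between the groups was not tested.

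**Figure D4:**
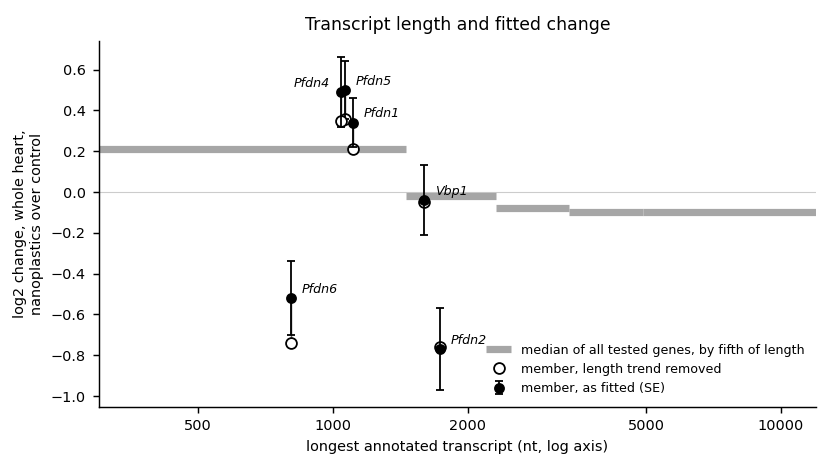
Whole-heart log2 change, nanoplastics over control (vertical axis), against the longest annotated transcript in nt (log axis): filled points with SE bars show the 6 members as fitted, open points show them with the length trend removed, and grey bars show the median of all tested genes in each of 5 length classes (the shortest and longest run past the axis). The members of similar length, Pfdn6 on one side and Pfdn4, Pfdn5 and Pfdn1 on the other, lie on opposite sides of 0.

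The partners of prefoldin were examined through 9 further lists, which hold 73 genes of the table, 64 of them tested in whole hearts. edgeR called 0 of the 64 and DESeq2 called 1, and 12 had an unadjusted p under 0.05, beside 18.2% of all genes tested. The 8 genes of the TRiC chaperonin, which receives chains from prefoldin, had a median log2 change of 0.13 (0.05 for Cct2 to 0.23 for Tcp1), beside a median of -0.03 over all genes tested. The same chaperonin genes had section medians of 0.08 (atrial), 0.16 (right ventricular) and 0.13 (left ventricular). The 10 tested tubulin genes had a median of 0.12 and the 5 actin genes a median of 0.07. Tuba1b, an alpha-tubulin, was at 0.40 (SE 0.16) and Acta1, skeletal muscle actin, at -0.39 (SE 0.24), and neither passed the test. The 3 phosducin-like cofactors of TRiC had a median of 0.09 and the 6 tested tubulin cofactors of -0.03.

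Of the 17 tested HSP70, HSP90 and mitochondrial chaperonin genes, 14 had a negative log2 change in whole hearts, with a median of -0.25, beside 53.4% negative over all genes. Of these 17, 0 were called by either tool, and 6 had an unadjusted p under 0.05, beside the 18.2% of all genes. The lowest was Hsph1, a nucleotide exchange factor of HSP70, at -0.68 (SE 0.22). The medians of this list by section were -0.20 (atrial), -0.44 (right ventricular) and -0.23 (left ventricular). The 9 genes of the prefoldin-like complex and its R2TP partner had a median of -0.10. Uxt, a prefoldin-like subunit of alpha type, was at 0.43 (SE 0.14), and Uri1, the scaffold of that complex, at -0.32 (SE 0.19). Uxt was the gene that DESeq2 called (log2 change 0.46, adjusted p = 0.0407), while its adjusted p in edgeR was 0.0900. The 4 tested nascent chain factors had a median of 0.17, with Naca at 0.32 (SE 0.14), and Vhl and Trim28, reported partners of single subunits, were at 0.09 (SE 0.35) and 0.60 (SE 0.41). In the 3 sections edgeR called 0 genes of these lists, and DESeq2 called 1, Zfp706, in the left ventricle. Unadjusted p-values under 0.05 numbered 3 of 57 tested (atrial), 6 of 53 (right ventricular) and 6 of 56 (left ventricular), beside 12.3%, 13.5% and 14.1% of all genes in the same sections. Single genes in these lists were named after their values were seen.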

How the data were processed

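The authors deposited 1 table of raw counts per gene symbol for 20960 genes and 21 libraries, and each column was matched to a sample by the library name in its label. Per the labels' protocols, RNA was isolated with TRIZOL, captured on oligo-dT beads and barcoded at the 5' end by template switching (AccuraCode plate kit), and wells were pooled before amplification and paired-end sequencing. STAR, a program that aligns reads, is listed in the submitters' processing notes without a version. No source used here gives the genome build, annotation, counter, use of strand or use of molecular identifiers. Intervals and limits on a count of 0 therefore cover counting error only, and reads of genes that overlap a member cannot be told apart where strand was not used. Such neighbours in the table were Myg1 beside Pfdn5 (same strand, 229 counts in all libraries), Klhdc9 beside Pfdn2 (opposite strand, 16 counts) and Gm16796 beside Pfdn4 (opposite strand, 1 count).

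Changes come from edgeR 4.0.16 in R 4.3.3 (quasi-likelihood test, robust, TMM scaling, filterByExpr defaults), adjusted by Benjamini-Hochberg over all genes tested and called at an adjusted p under 0.05. Whole hearts were the sum of a mouse's libraries, section contrasts had the mouse as a block, and the treatment by section interaction was fitted over all 21 libraries. limma 3.58.1 and DESeq2 1.42.0 gave alternatives, and the fits were checked on simulated data. Levels in single libraries used 1 TMM scaling over all libraries. Transcript lengths come from GENCODE M21 and were found for 20511 genes. Mice are separate animals by the labels, and 0 of 210 pairs of libraries were identical. The members and gene lists were chosen with earlier results of these data known. All 6 members were to be described in every comparison. From the other pathway lists, genes called by edgeR were to be named, and there were 0. DESeq2 called Uxt in whole hearts, Zfp706 in the left ventricle and Actb for the atrial section against the left ventricle. The genes of similar pattern are the 5 with the highest Pearson correlation, and those for single members were added after seeing the data. Promoter windows come from the RefSeq table.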

Additional observations from a re-analysis of the deposited data

Results flagged for a closer look

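In 18 groups of 4 libraries or mice, the gap between an extreme value and its nearest neighbour was compared with the whole range (Dixon's 95% limit), and 2 groups passed it, where chance gives about 1 in 20. Both concern Pfdn5 and nanoplastics mouse 1, and 1 of the values is part of the other. Its whole-heart level was 650.8 CPM, against 498 CPM in the next highest nanoplastics heart. Its atrial level was 844.7 CPM, against 526.4 CPM in the next highest nanoplastics atrial library. That atrial library had the highest summed level of atrial muscle markers, 68960 CPM, and the part of this in the Pfdn5 value was not tested.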

How the results depend on the processing

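Of 612 recomputed changes of the 6 members, 589 moved by less than the SD of the gene's log2 level between replicates within groups. By more than this SD, which is not the SE of a change, moved 23, and 0 that had been called changed sign. Sign changes of members that had not been called are not in that 0. Vbp1 in whole hearts kept its direction in 14 of 17 alternatives, and Pfdn4 in the right ventricle in 11 of 14. The whole-heart call of Pfdn2 was kept in 7 of 17 alternatives, and the right ventricular calls of Pfdn2 and Pfdn6 in 8 and 9 of 14. These alternatives reuse the counts on which the members were chosen, so a call that is kept is no support for it. Scaling by library totals shifted the median of all genes in whole hearts to -0.27 on the log2 scale, and there Pfdn1 was at 0.09, Pfdn5 at 0.26 and Pfdn6 at -0.75. With sections at equal weight and the library of 4662 counts included, Pfdn1 was at -0.25 and Pfdn5 at -0.21, the other direction, and at 0.32 and 0.47 without that library.

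Counts of called genes depended on the setting, and the cause was not tested. In whole hearts 217 genes became 768 with library totals, 333 with DESeq2, 29 with the length trend removed, 0 with sections at equal weight, 91 so without the low library and 137 with the ventricles summed, and leaving out 1 mouse gave 0 to 201. The atrial count of 0 became 94 with DESeq2 and 17 without a filter, and leaving out 1 mouse gave 0 to 1. The right ventricular 39 became 215 with library totals, 68 without the low library, 73 with DESeq2's size factors in edgeR, 0 with DESeq2, 20 without a filter and 0 with the length trend removed, and 4 to 175 with 1 mouse left out. The left ventricular 3 became 23 with library totals, 80 with DESeq2 and 30 without a filter, and 0 to 21 with 1 mouse left out. For the atrial section against the left ventricle, 8 became 33 with library totals, 115 without a filter and 14 with the length trend removed, and 0 to 98 with 1 mouse left out. For the atrial section against the right ventricle, 30 became 7 with library totals, 3 without the low library, 4 with DESeq2, 65 without a filter and 4 with the length trend removed, and 3 to 92 with 1 mouse left out. For the right against the left ventricle, 1 became 0 with library totals, without the low library, with DESeq2 and with the length trend removed, 2 without a filter, and 0 to 5 with 1 mouse left out. The interaction count for the atrial section against the left ventricle became 1 without the low library.

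Mice of the 2 groups share a replicate number, but same-numbered mice did not deviate together (correlations 0.068, 0.09 and -0.043), so the numbers pair nothing. With the replicate block the counts were 313 (whole heart), 106 (atrial), 4 (right ventricular) and 0 (left ventricular). Without the mouse as a replicate block, all 3 section contrasts gave 0 calls.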
